A study of Mus musculus with 34 samples.

Results

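The clustered histone genes of the mouse were followed across 34 arrays that measured DNA methylation at CpG islands. Every array probe whose gene name began with Hist1h, Hist2h, Hist3h or Hist4h was taken, and probes were joined into islands wherever the gap between neighbours was at most 500 bases. This gave 137 histone probes in 47 islands, of which 24 held at least 3 probes on every array and were scored, out of 13616 islands scored in the same way over the whole array. The other 23 islands, with 36 of the histone probes, were too small to score. The 24 islands carry 37 histone gene names, and 18 further names occur only in unscored islands.

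Replication-dependent histone genes lie in clusters and encode the core histones H2A, H2B, H3 and H4 and the linker histone H1 that package newly copied DNA. They have no introns, their mRNAs end in a stem-loop in place of a poly(A) tail, and they are transcribed mainly in S phase. A few members of the same clusters are instead used in the male germ line: Hist1h1t encodes the testis linker histone H1t, and Hist1h2aa and Hist1h2ba encode TH2A and TH2B. Replacement variants such as H1f0 and H3f3a are encoded outside the clusters and are expressed through the cell cycle. CpG island promoters of widely expressed genes are usually unmethylated, whereas many promoters of germ-cell genes are methylated in somatic cells.

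DNA methylation was measured by methyl-DNA immunoprecipitation (mDIP), in which an antibody to 5-methylcytidine pulls down methylated fragments. Bound DNA was labelled with Cy5 and input DNA with Cy3 for a common hybridisation on Agilent arrays of mouse CpG islands. Each island was given an island methylation score (IMS), the mean over its probes of the bound/input log ratio expressed as a Z score within that array. An IMS of 0 is therefore the average probe of the array, a negative score means less bound DNA than that average, and the score is not a percentage of methylation. The arrays comprised 16 from adult tissue, 5 from embryos, 3 from undifferentiated ES cells, 5 from ES cells differentiated in vitro, 2 from teratomas, and 1 each from ex vivo beta cells, Min6 cells and aTC cells.

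The methods give C57Bl/6 as the source of the mouse DNA without a separate statement for the ES lines. The adult tissues were colon, pancreas, brain, kidney, liver, lung, muscle and spleen at 3 months of age, each on 2 arrays. Both colon and both pancreas samples were labelled male and both lung samples female, and each other tissue had a female sample (replicate 1) and a male sample (replicate 2). Embryos were single samples of 8.5, 9.5, 10.5, 11.5 and 12.5 days post coitum (dpc), male except at 12.5 dpc. The undifferentiated ES cells were the lines EB5, J1 and TT2. The differentiated cells were embryoid bodies from TT2, retinoic acid treated cells that the label assigns to TT2 and the methods to J1, 2 preparations of definitive endoderm and 1 of mesoderm, the latter 3 sorted after Activin A from reporter cells derived from EB5. Both teratomas are labelled as made from J1, whereas the methods name other lines for them, and they grew in NOD-SCID mice and so could hold host cells. Beta cells were sorted from islets of Pdx1-GFP mice, and Min6 and aTC are pancreatic endocrine tumour lines, each a single culture. The 5 embryo stages, 3 lines and 4 differentiation methods were treated as samples of their group, so the spread within a group includes these differences.

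The comparison of testis-type with replication-type members could not be made inside the clusters. None of the 3 testis-type names (Hist1h1t, Hist1h2aa, Hist1h2ba) occurs on the array, and all 55 histone names that do occur are replication-type. In the array's own annotation the nearest probe to the Hist1h1t start lies 2657 bases away, and 0 probes list Hist1h2aa or Hist1h2ba. Promoters of both kinds are nevertheless shown here, because they are the regions in question, together with that of the linker histone H1fnt, a testis gene outside the clusters. The scored H1fnt island carried the contrast that could be measured. Its probes lie 167 to 479 bases inside the gene from its start, so the H1fnt window shown does not cover them. Each sequence is the RefSeq promoter window of the GRCm38.p6 build, 250 bases before to 50 bases after the gene start, in the gene's direction, with every CpG in capitals. The replication-type promoters chosen are Hist1h1b (an H1 gene), Hist1h2bm (an H2B gene with the lowest adult score) and Hist1h4a (an H4 gene).
Hist1h1b (now H1f5), chr13:21780576-21780875, minus strand: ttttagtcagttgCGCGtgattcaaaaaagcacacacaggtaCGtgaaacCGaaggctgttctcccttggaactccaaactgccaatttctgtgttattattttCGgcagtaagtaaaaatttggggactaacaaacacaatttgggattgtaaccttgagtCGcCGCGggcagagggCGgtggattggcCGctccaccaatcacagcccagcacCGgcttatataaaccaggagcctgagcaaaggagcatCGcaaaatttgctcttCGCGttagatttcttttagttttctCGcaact
Hist1h2bm (now H2bc14), chr13:21721794-21722093, plus strand: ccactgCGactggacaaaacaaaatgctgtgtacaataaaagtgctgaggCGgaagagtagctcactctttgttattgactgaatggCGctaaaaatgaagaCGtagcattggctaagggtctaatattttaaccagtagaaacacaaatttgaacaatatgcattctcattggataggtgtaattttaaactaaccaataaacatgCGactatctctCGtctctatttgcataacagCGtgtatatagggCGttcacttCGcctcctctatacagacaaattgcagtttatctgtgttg
Hist1h4a (now H4c1), chr13:23761200-23761499, minus strand: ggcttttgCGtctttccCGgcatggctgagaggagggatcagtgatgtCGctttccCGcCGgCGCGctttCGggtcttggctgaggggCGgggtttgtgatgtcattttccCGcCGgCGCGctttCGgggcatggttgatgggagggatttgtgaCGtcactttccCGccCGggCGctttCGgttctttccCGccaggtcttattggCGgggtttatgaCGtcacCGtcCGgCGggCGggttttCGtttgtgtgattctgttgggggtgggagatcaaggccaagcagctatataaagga
Hist1h1t (now H1f6, testis), chr13:23695561-23695860, plus strand: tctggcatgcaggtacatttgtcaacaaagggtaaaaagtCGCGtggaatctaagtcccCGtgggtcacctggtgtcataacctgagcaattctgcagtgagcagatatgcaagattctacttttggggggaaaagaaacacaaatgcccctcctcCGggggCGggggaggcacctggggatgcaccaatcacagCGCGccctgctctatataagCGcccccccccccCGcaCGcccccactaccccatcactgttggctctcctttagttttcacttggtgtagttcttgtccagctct
Hist1h2ba (now H2bc1, testis), chr13:23934107-23934406, minus strand: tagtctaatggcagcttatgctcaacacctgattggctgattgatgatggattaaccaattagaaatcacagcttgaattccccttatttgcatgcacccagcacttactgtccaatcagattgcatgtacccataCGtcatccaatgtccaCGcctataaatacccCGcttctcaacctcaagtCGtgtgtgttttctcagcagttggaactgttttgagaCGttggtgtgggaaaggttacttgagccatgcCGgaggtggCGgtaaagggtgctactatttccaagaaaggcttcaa
H1fnt (now H1f7, testis, outside the clusters), chr15:98257258-98257557, minus strand: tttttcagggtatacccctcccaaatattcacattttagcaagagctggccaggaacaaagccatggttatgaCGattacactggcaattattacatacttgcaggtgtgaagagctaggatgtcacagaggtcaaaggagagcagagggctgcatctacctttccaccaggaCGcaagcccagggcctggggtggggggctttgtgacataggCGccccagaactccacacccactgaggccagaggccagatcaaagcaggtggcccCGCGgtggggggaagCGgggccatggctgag

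These windows hold 15 CpGs in Hist1h1b, 9 in Hist1h2bm and 27 in Hist1h4a, against 10 in Hist1h1t, 7 in Hist1h2ba and 6 in H1fnt. All 55 histone names on the array matched a RefSeq gene, and 49 of these genes had 50 promoter windows. Their CpG count ran from 3 to 41 with a median of 10.5, while the 3 testis-type windows held 7, 8 and 10 and all 32851 windows had a median of 7. Motifs were searched on both strands. The CCAAT box (CCAAT) was found in 86.0% of the 50 replication-type windows and in all 3 testis-type windows, against 37.4% of all windows. The TATA box (TATAAA) was found in 62.0% of the replication-type windows and 2 of the testis-type windows, against 13.6% of all windows. The octamer ATTTGCAT, the element of H2B promoters bound by Oct factors, was found in 24% of the replication-type windows, 6 of the 13 H2B windows among them, and 2 of the testis-type windows, against 1.74% of all windows. By CpG count the testis-type windows lay inside the range of the replication-type windows.

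Of the 24 scored islands, 20 lie on chromosome 13 in the Hist1 cluster, 2 on chromosome 3 (Hist2), 1 on chromosome 11 (Hist3) and 1 on chromosome 6 (Hist4). The Hist1 probes fall into a proximal block from 21723611 to 22058984 with 7 scored islands and a distal block from 23538477 to 23771457 with 13, with 1.479 Mb between them; the build of the array coordinates is not given in the sources used here. A typical scored island held 4 probes over 606 bases (medians). In the array annotation 42 histone probes are placed at a promoter, 32 at a promoter shared by divergent genes, 44 inside a gene and 19 downstream. In 22 of the 24 islands a histone probe lies within 500 bases of the start of the gene it is named for. The exceptions are an Hist1h2bj island 7747 to 8260 bases from the Hist1h2bj start and a 5-probe Hist1h2be island listed by the array as 35766 to 36185 bases from the Hist1h2be start. RefSeq gives Hist1h2be a pair of start windows in GRCm38.p6 (at 23585921 and 23621045), and the distance of this island to the other start was not measured. The Hist4 island is also unlike the rest, since 3 of its 4 probes are named only for H2afj, a replacement H2A gene that shares this promoter region with Hist4h4.

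The clustered histone islands scored below the array average in every kind of sample with the log ratios as deposited. The mean over the 24 islands was below 0 on all 34 arrays, from -1.04 in the ES line TT2 to -0.11 in endoderm replicate 1. It was -0.54 ± 0.30 in adult tissue (SD, n = 16), -0.50 ± 0.29 in embryos (n = 5), -0.77 ± 0.42 in undifferentiated ES cells (n = 3), -0.42 ± 0.19 in differentiated ES cells (n = 5) and -0.28 ± 0.11 in teratomas (n = 2). With another background correction (normexp on median signals) the means were nearer to 0, at -0.18 in undifferentiated ES cells, -0.062 in embryos and -0.054 in differentiated ES cells, and the teratoma mean of 0.086 was above 0. Of the 816 single values of an island on an array, 89.0% were below 0, against 65.3% of the values of all islands. Only 3 exceeded an IMS of 0.75, used here as the threshold for a methylated island, whereas 12.8% of the values of all islands did. The sign alone does not set the histone islands apart: 8 of 24 (33.3%) were below 0 on every adult array, against 29.8% of all islands, and 3 of 24 (12.5%) on all 34 arrays, against 15.5%.

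**Figure D1:**
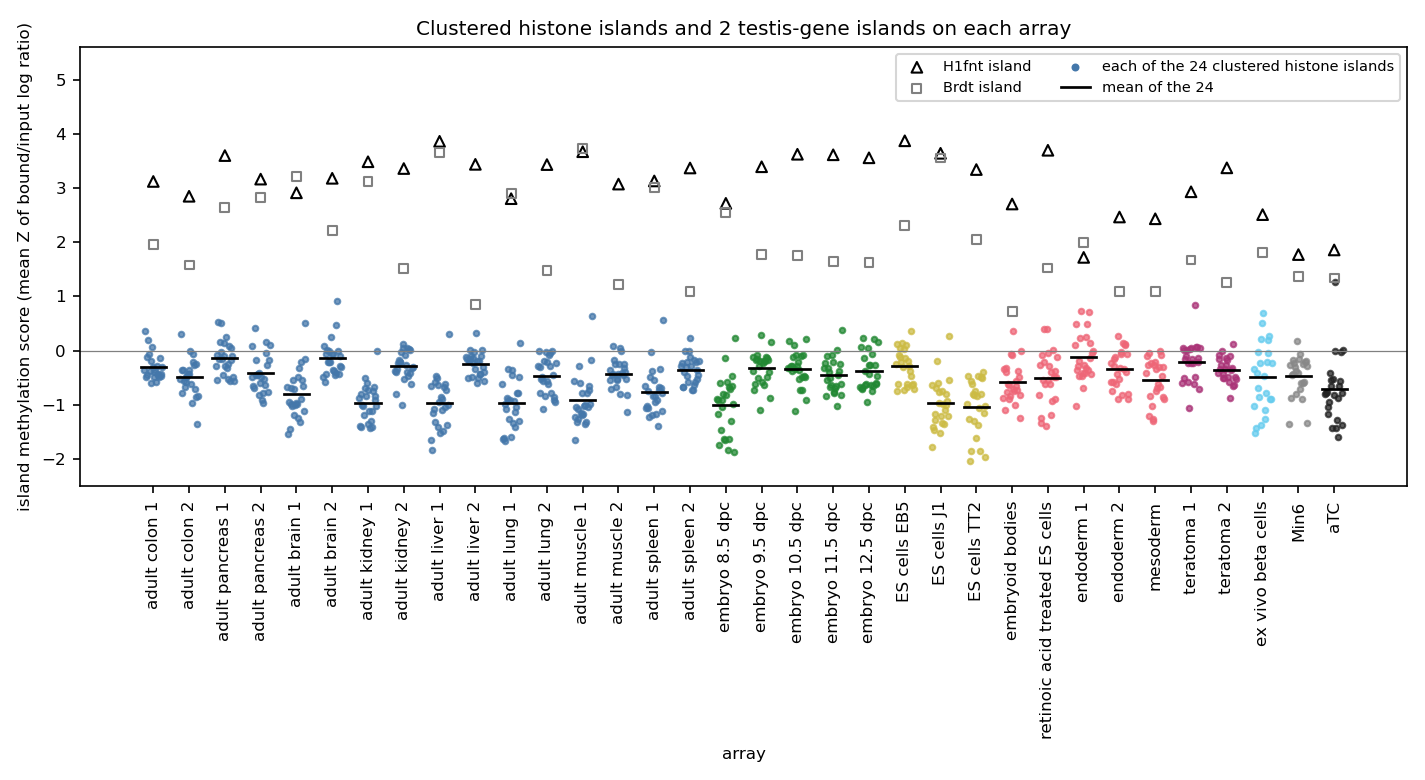
Island methylation score (vertical axis, Z units) of each of the 24 clustered histone islands (filled points, coloured by sample group) on each of the 34 arrays (horizontal axis), with their mean as a bar and the islands of the testis genes H1fnt (triangles) and Brdt (squares). The histone means all lie below 0, between -1.04 and -0.11, and both testis-gene islands lie above every histone island on all 34 arrays.

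How far below 0 the histones fell went with how bright their spots were. The scanner software marked the input signal as well above background for 11.8% to 99.3% of the histone probes of an array, against 62.5% to 99.9% of all probes, so the histone spots were among the dim ones. On dim arrays many histone log ratios were exactly 0 (up to 42.6% of the histone spots of an array, and 9.15% of all spots), the value the software wrote when neither channel could be measured. On the 10 arrays where at least 80% of the histone probes had a readable input, the mean histone IMS was between -1.04 and -0.71 on 9, and -0.11 on the remaining one, endoderm replicate 1. On the 18 arrays with under 50% readable it was between -0.58 and -0.14. The bright and dim ranges thus did not overlap apart from endoderm replicate 1, which had the highest share of readable histone spots (99.3%) and was the only array read with its version of the scanner software. The 6 arrays in between ran from -0.79 to -0.14. The part of brightness in these levels was not tested.

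**Figure D2:**
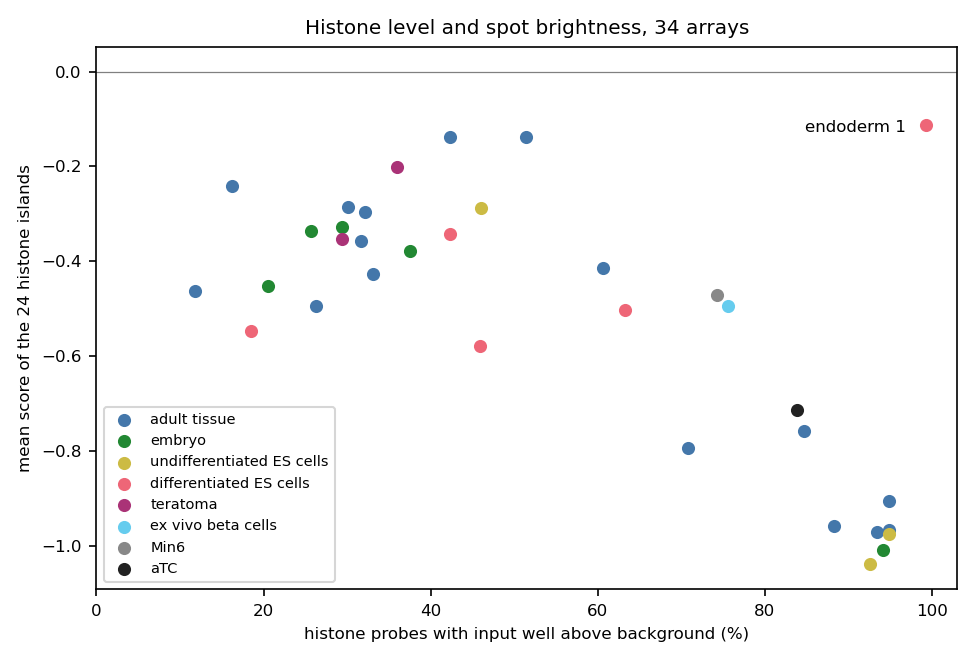
Mean score of the 24 histone islands (vertical axis, Z units) against the percentage of histone probes with an input signal well above background (horizontal axis), 1 point per array, coloured by sample group. Arrays with at least 80% readable probes sit between -1.04 and -0.71, except endoderm replicate 1 at -0.11, and arrays with under 50% sit between -0.58 and -0.14.

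A single scan day held replicate 1 of brain, kidney, liver, lung, muscle and spleen together with the ES line J1, all with at least 80% of histone probes readable except brain (70.8%). On these 6 adult arrays the mean histone IMS was -0.89 ± 0.09 (SD, n = 6), and the median histone island stood on average at percentile 2.22 of all islands (0.250 to 5.25 over the arrays). By their mean over the 6 arrays, 20 of the 24 histone islands were in the lowest 10% of all islands and 12 in the lowest 1%. On the 10 other adult arrays the mean was -0.33 ± 0.13 and the median histone island stood at percentile 34.1. The lower level on the shared scan day held for 21 of the 24 islands, and for 10 islands the ranges of the 6 and the 10 arrays did not overlap. How many of all islands split this way was not counted, so these counts do not set the histone islands apart. The 6 samples were all female and the 10 others were male apart from lung replicate 2 (mean -0.46). Scan day, brightness and sex cannot be told apart here.

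Among the islands, the lowest adult scores belonged to Hist1h2bm (H2B), with -0.84 ± 0.41 over the 16 adult arrays, Hist1h3g (H3), with -0.80 ± 0.37, and the 5-probe Hist1h2be island, with -0.80 ± 0.44. Hist1h2bm ran from -1.84 to -0.30 with a median of -0.75, Hist1h3g from -1.40 to -0.21 with a median of -0.83, and the Hist1h2be island from -1.43 to -0.08 with a median of -0.76. These ranges overlap almost fully, so their order is not beyond the spread. The highest adult scores were those of Hist4h4/H2afj at -0.16 ± 0.44, Hist1h4a/Hist1h3a/Hist1h1a at -0.35 ± 0.31 and Hist1h4f/Hist1h1d (H4 and H1) at -0.35 ± 0.42. Only Hist1h3g, the 5-probe Hist1h2be island and Hist2h2ab/Hist2h2ac/Hist2h2be were below 0 on all 34 arrays. Islands holding H2A or H2B genes alone (12) averaged -0.58 ± 0.36 over the adult arrays, the 6 with a linker histone gene -0.53 ± 0.31 and the 9 with an H3 or H4 gene -0.44 ± 0.25, differences smaller than the spread between arrays.

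Inside the Hist1 cluster the level did not separate the blocks in adult tissue: the 7 islands of the proximal block averaged -0.57 ± 0.41 and the 13 of the distal block -0.54 ± 0.33 (SD over 16 arrays). On the shared scan day the same averages were -1.05 ± 0.14 and -0.92 ± 0.09. The lowest of all on that day was Hist1h2bl/Hist1h2ai, a divergent H2B and H2A pair, at -1.48 ± 0.23, and the next was Hist1h2ac/Hist1h2bc, another such pair, at -1.39 ± 0.07. On the other 10 adult arrays they stood at -0.05 ± 0.29 and -0.16 ± 0.27. Only 29.4% and 43.1% of their spots had a readable input over the 34 arrays, among the lower shares of the 24 islands (29.4% to 84.5%). The Hist1h2bj island far downstream was the exception in the cluster, with -0.36 ± 0.19 on the shared scan day and -0.41 ± 0.28 on the other arrays.

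**Figure D3:**
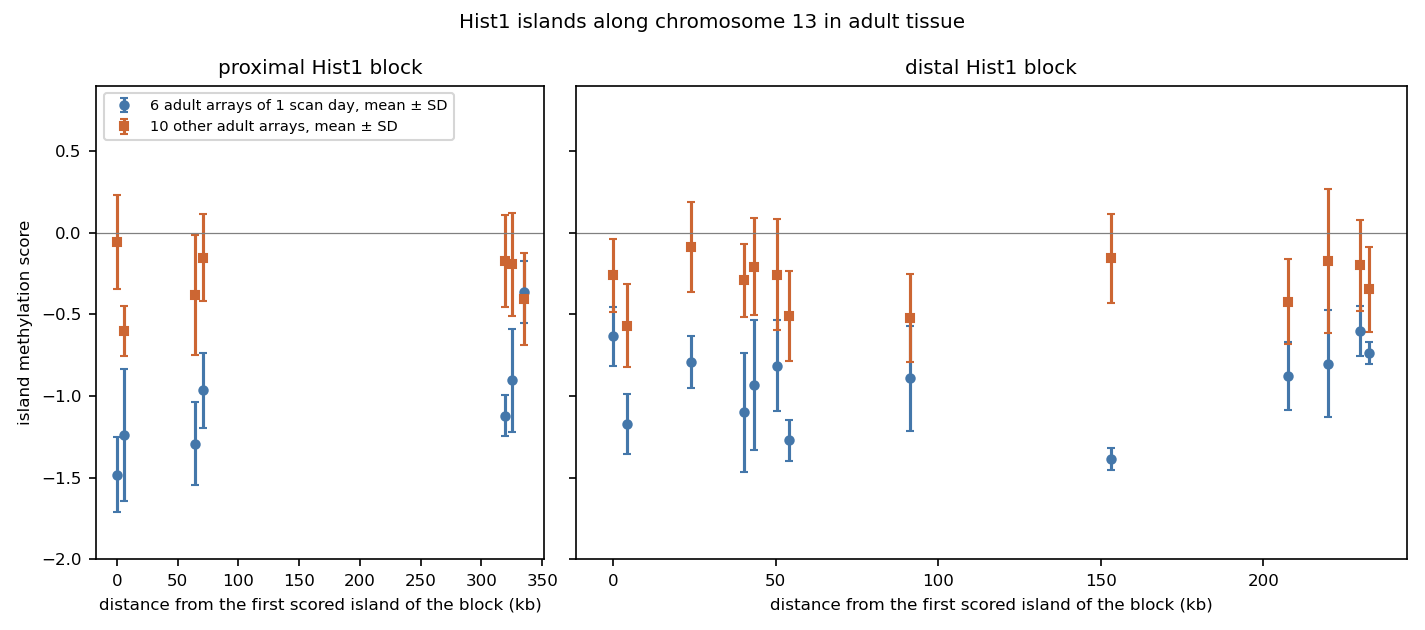
Island methylation score (vertical axis, Z units) of the 20 Hist1 islands against their distance in kb from the first scored island of their block, for the 6 adult arrays of the shared scan day (circles, mean ± SD) and the 10 other adult arrays (squares, mean ± SD). The means of the first set lie lower at all islands but Hist1h2bj, and all means of both sets are below 0.

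The Hist2 and Hist3 islands scored like those of Hist1, and the Hist4 island stood higher. Hist2h2ab/Hist2h2ac/Hist2h2be scored -0.74 ± 0.39 in adult tissue and Hist2h2bb -0.55 ± 0.47, and both had means between -1.04 and -0.42 in each of the other groups with replicates. Hist3h2bb/Hist3h2a had the smallest spread of the 24 in adult tissue, -0.47 ± 0.20. Hist4h4/H2afj was the only island whose mean was above 0 on the shared scan day (0.25 ± 0.32), and it was below 0 on 21 of the 34 arrays. In the 5 embryos, in order of age, it scored 0.24, 0.16, 0.21, 0.38 and 0.15, so that every embryo was above 0. The adult arrays ran from -0.84 to 0.65 with a median of -0.21 and overlapped the embryos.

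Linker histone genes allowed 1 testis gene, outside the clusters, to be set beside the replication type. H1fnt encodes a spermatid linker histone on chromosome 15, and its island (4 probes, 167 to 479 bases inside the gene from its start) had an IMS of 3.28 ± 0.30 in adult tissue, between 2.80 and 3.86 over the 16 arrays. The 6 clustered islands with an H1 gene averaged -0.53 ± 0.31 on the same arrays, between -1.04 and 0.02. H1fnt exceeded the highest of these 6 on every array, by 3.17 ± 0.72 on average (SD, n = 34) and by 1.46 at the least. Each of the 6 has a probe nearer to a histone gene start than any H1fnt probe is to its own. Gene type and position in the gene cannot be told apart for H1fnt. The promoter of Brdt, a testis bromodomain protein that binds acetylated histones, scored 2.31 ± 0.94 in adult tissue. Brdt stood at 3.27 ± 0.34 on the 6 adult arrays of the shared scan day and 1.74 ± 0.66 on the 10 others. For H1fnt the same means were 3.31 and 3.26. Both H1fnt and Brdt lay above all 24 histone islands on 34 of 34 arrays. The smallest margin was on the aTC array, where Brdt stood at 1.34 and Hist1h2bf/Hist1h2ad at 1.27. H1fnt and Brdt were chosen because they were the members of a list of testis chromatin proteins outside the clusters that could be scored (2 of 10), so they do not stand for H1t, TH2A or TH2B.

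**Figure D4:**
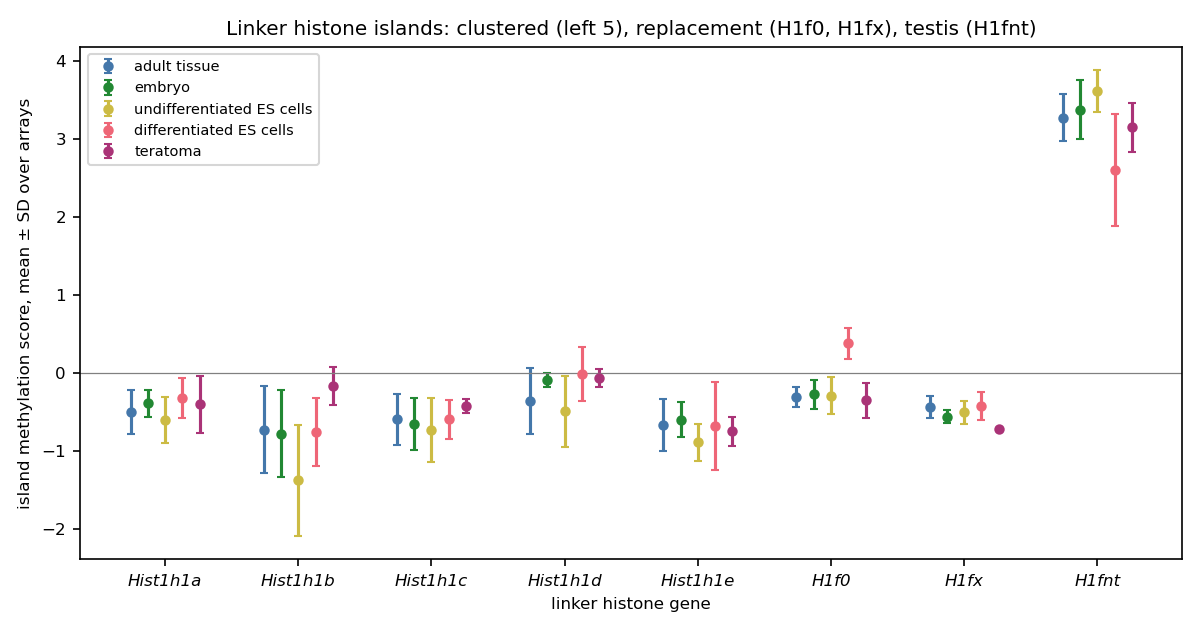
Island methylation score (vertical axis, Z units; mean ± SD over the arrays of a group) for linker histone genes, with 5 clustered genes on the left, the replacement genes H1f0 and H1fx, and the testis gene H1fnt on the right. The 5 clustered islands drawn (for Hist1h1a the Hist1h3a/Hist1h1a island) have group means below 0, whereas the Hist1h4a/Hist1h3a/Hist1h1a island, not drawn, had 0.092 in teratomas. H1f0 stands at 0.38 in differentiated ES cells, and H1fnt lies between 2.60 and 3.62.

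Germ-cell genes outside the histone clusters were high as well: the 12 islands of 11 scored germline genes had a median IMS of 2.98 in adult tissue, with only an island named for A630007B06Rik and Tdrd1 below 0. In differentiated ES cells the median was 2.32, and 9 of the 12 islands were called lower than in adult tissue, against 8.73% of all islands called lower and 23.2% called in either direction.

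The first question across groups was whether histone islands gained methylation in ES cells differentiated in vitro, where the study looked for excess methylation. With limma and Benjamini-Hochberg adjustment over all 13616 islands, 0 of the 24 histone islands differed between differentiated ES cells and adult tissue, while 23.2% of all islands did (1967 higher and 1188 lower). No histone island had an unadjusted p under 0.05 by limma, against 34.9% of all islands. The methods' t-test after the same adjustment also called 0, with 0 at an unadjusted p under 0.05. The differences ran from -0.21 to 0.49 with a median of 0.16, and 15 of 24 were positive, against a median of -0.01 over all islands. The 95% bounds of the histone islands had medians of -0.28 and 0.50. The standard error of a histone island was 0.21 at the median, against 0.12 for all islands, so smaller changes could be missed here. With scan day as a fixed block 3 histone islands were called lower (Hist1h2ah/Hist1h2bk, Hist3h2bb/Hist3h2a and Hist1h2bj) and with slide as a block 1. With dim input spots left out 2 were called higher (Hist1h2be and Hist2h2ab/Hist2h2ac/Hist2h2be). The share of all islands called under these settings is not given here, and 23.2% is not their background.

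The other comparisons also called 0 of the 24. Undifferentiated ES cells against adult tissue called 2.30% of all islands. In that comparison 1 histone island had an unadjusted p under 0.05 by limma (16.7% of all islands) and 1 by the methods' t-test. Embryos against adult tissue called 8.64% of all islands. There 0 histone islands had an unadjusted p under 0.05 by either test, against 22.1% of all islands by limma. Differentiated against undifferentiated ES cells called 5.43%, with 3 histone islands by limma (20.9% of all islands) and 2 by the methods' t-test at that level. Differentiated ES cells against embryos called 21.1%, with 1 (34.3% of all islands by limma) and 1. Teratomas called 0.191% against adult tissue, with 1 histone island at that level by limma (7.79% of all islands) and 0 by the methods' t-test. Against differentiated ES cells they called 6.81%, with 0 (20.8% of all islands by limma) and 1. Among the 8 adult tissues the limma F test called 0.0808% of all islands. No histone island had an unadjusted p under 0.05, against 3.95% of all islands, and the methods' t-test does not apply to 8 groups. For 6 of the 8 tissues only replicate 1 came from the shared scan day, so the spread within these tissues includes any scan-day difference. For the methods' t-test the shares of all islands at an unadjusted p under 0.05 are not given here, so its counts have no background. With 2 to 5 arrays in most groups, these results do not show that the histone islands were equal between groups.

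**Figure D5:**
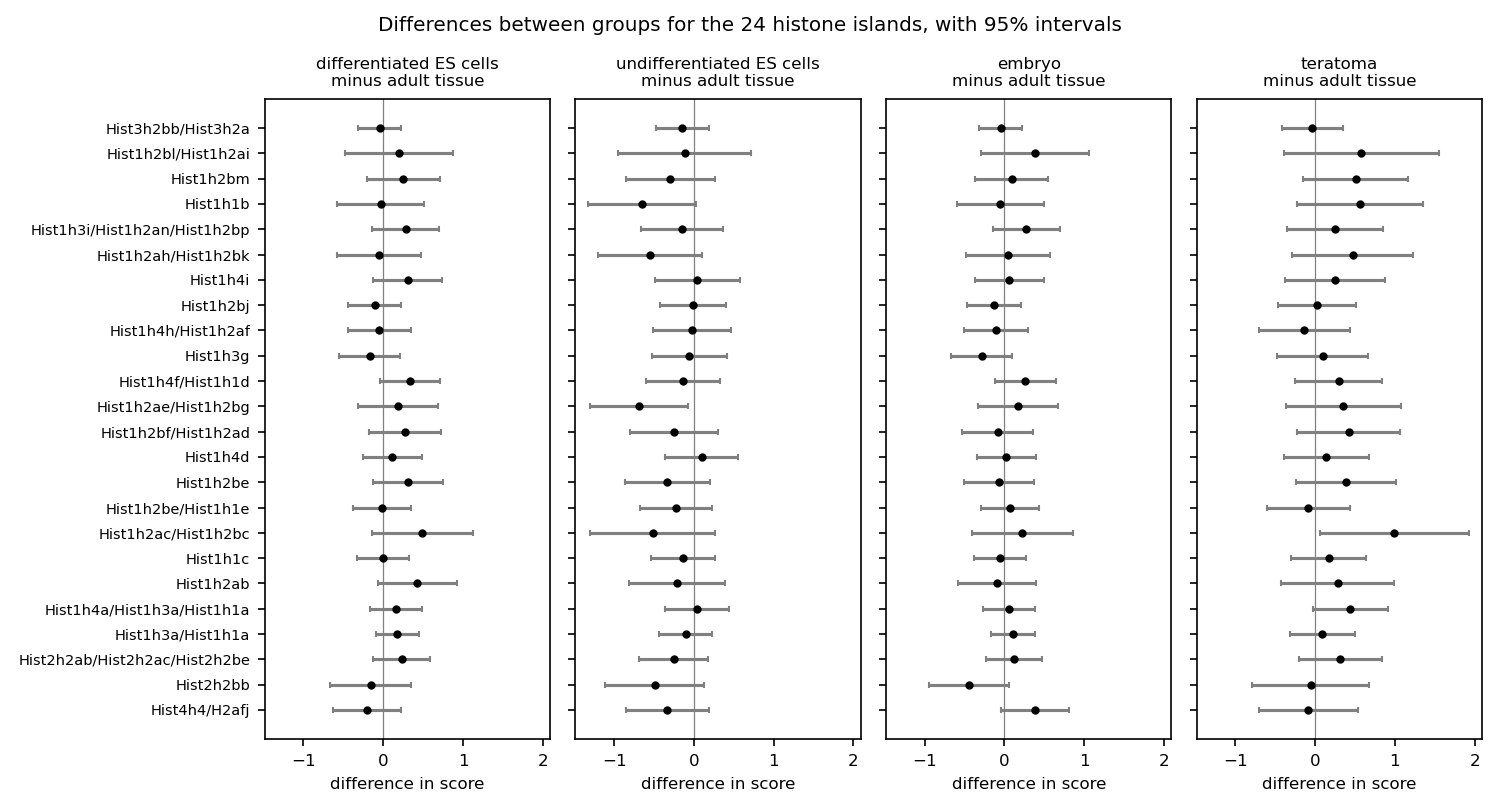
Difference in island methylation score from adult tissue (horizontal axes, Z units) for each of the 24 histone islands, with limma's 95% interval, in differentiated ES cells, undifferentiated ES cells, embryos and teratomas. Nearly all intervals include 0, the exceptions being Hist1h2ae/Hist1h2bg in undifferentiated ES cells and Hist1h2ac/Hist1h2bc in teratomas, and 0 islands passed the adjusted threshold.

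Islands with an unadjusted p under 0.05 were Hist1h2ae/Hist1h2bg and Hist1h2ac/Hist1h2bc, both pairs of H2A and H2B genes, the 5-probe Hist1h2be island and Hist4h4/H2afj. Hist1h2ae/Hist1h2bg scored -0.73, -1.53 and -1.60 in the ES lines EB5, J1 and TT2, and -0.09 (embryoid bodies), -0.54 (retinoic acid), -0.68 and -0.53 (endoderm) and -0.21 (mesoderm) after differentiation. All 5 differentiated samples were above all 3 undifferentiated lines. The adult arrays ran from -1.59 to 0.04 with a median of -0.49 and overlapped both. The difference was 0.87 ± 0.35 (SE) between differentiated and undifferentiated cells (limma, adjusted p = 0.141) and -0.69 ± 0.30 between undifferentiated cells and adult tissue (limma, adjusted p = 0.235). J1 and TT2 are bright arrays (94.9% and 92.6% of histone probes readable) and EB5 a dim one (46.0%), as were all differentiated samples but endoderm replicate 1 and, in part, the retinoic acid sample (63.2%).

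Hist1h2ac/Hist1h2bc gave the largest differences. It scored -0.20, -1.36 and -1.85 in EB5, J1 and TT2, and -0.56, -0.40, 0.49, 0.13 and -0.30 in embryoid bodies, retinoic acid, both endoderm preparations and mesoderm, a difference of 1.01 ± 0.44 (SE; limma, adjusted p = 0.183) in which EB5 overlapped the differentiated cells. Without TT2 this difference was 0.65, and without EB5 it was 1.479. The teratomas stood at 0.85 and -0.09, against -1.49 to 0.47 (median -0.35) in adult tissue, a difference of 1.00 ± 0.46 (SE; limma, adjusted p = 0.599) that was 0.52 without teratoma replicate 1 and 1.47 without replicate 2. Of the 3 probes behind the teratoma value of 0.85, 0 had an input or a bound signal well above background. The 5-probe Hist1h2be island scored -0.67, -1.34 and -1.37 in EB5, J1 and TT2 and -0.75, -0.61, -0.32, -0.07 and -0.69 in the differentiated cells in the order above (difference 0.64 ± 0.30, SE; limma, adjusted p = 0.219), with EB5 again inside the differentiated range. With slide as a block, all 3 of these differences between differentiated and undifferentiated cells turned negative, to -0.11 at Hist1h2ae/Hist1h2bg, -0.66 at Hist1h2ac/Hist1h2bc and -0.36 at Hist1h2be. These values rest only on slides shared with adult tissue: EB5 with pancreas replicate 2, endoderm replicate 2 with pancreas replicate 1, and embryoid bodies with brain replicate 2. The low lines J1 and TT2 do not enter them.

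Hist4h4/H2afj had the lowest adjusted p of the 24 islands. Against the embryos, all between 0.15 and 0.38, the differentiated cells scored -0.00 (embryoid bodies), -0.12 (retinoic acid), -0.01 and -0.80 (endoderm) and -0.89 (mesoderm), so the groups did not overlap. The difference was -0.59 ± 0.26 (SE; limma, adjusted p = 0.0993). It passed the threshold when only the 2 groups were fitted (limma, adjusted p = 0.0358) and, at -0.91, when spots of dim input were left out (limma, adjusted p = 0.00928). Since 3 of its 4 probes are named for H2afj alone, this is a value for a replacement histone gene as much as for Hist4h4. All other islands had adjusted p values above this one in every comparison.

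Arrays that shared a slide or a scan day allowed closer pairs. TT2 and the 8.5 dpc embryo were on the same slide, were both bright, and averaged -1.04 and -1.01 over the histone islands, with 11 of 24 islands higher in TT2. J1, scanned with the 6 adult arrays, averaged -0.98 and lay within their range at 21 of the 24 islands and below it at the other 3. On less bright slides, EB5 averaged -0.29 and pancreas replicate 2 -0.41, endoderm replicate 2 averaged -0.34 and pancreas replicate 1 -0.14, and embryoid bodies averaged -0.58 and brain replicate 2 -0.14. In both pairs of differentiated cells with an adult tissue the differentiated sample was lower on average, and embryoid bodies were higher than brain at 3 of 24 islands. These are single arrays, with no replicate check. The shares of all islands for these counts are not given here, so the counts do not set the histone islands apart.

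The pancreatic cells had 1 array each, so no test applied. The mean over the 24 islands was -0.49 in ex vivo beta cells, -0.47 in Min6 and -0.71 in aTC, and 11 islands were higher in Min6 than in beta cells and 8 in aTC. The shares of all islands higher in these lines are not given here. Hist1h2bf/Hist1h2ad, a divergent pair of H2B and H2A genes, was the single histone island with a high score on readable spots: 1.27 in aTC, where all 3 probes had input and bound signals well above background and Z scores between 1.07 and 1.43. It stood at 0.70 in ex vivo beta cells and -0.15 in Min6, and between -1.53 and 0.33 over the adult arrays. In Min6 the largest excesses over beta cells were 0.98 at Hist1h1b, from -1.43 to -0.45, 0.70 at Hist2h2ab/Hist2h2ac/Hist2h2be and 0.65 at Hist1h2bm, with scores below 0 in both. In aTC they were 0.75 at Hist1h2bm, 0.57 at Hist1h2bf/Hist1h2ad and 0.45 at Hist1h4d, the last from -0.46 to -0.01. The remaining value above 0.75, 0.91 for Hist1h2ab in brain replicate 2, rested on 3 probes of which 1 had a readable input and 0 a readable bound signal.

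Among genes outside the clusters, the replacement variant H1f0, the linker histone of differentiated and resting cells, was called in differentiated ES cells, where 0 clustered H1 islands were; the difference between the genes was not tested. Its promoter island (11 probes) scored -0.31 ± 0.13 in adult tissue, -0.27 ± 0.19 in embryos, -0.29 ± 0.24 in undifferentiated ES cells and 0.38 ± 0.20 in differentiated ES cells. The rise over adult tissue was 0.69 ± 0.09 (SE; limma, adjusted p = 8.44e-07). Of the 48 alternatives tried, 47 kept this call and 0 turned its sign. Many of them left out 1 embryo, undifferentiated ES cell or teratoma array, which cannot change this difference, so the count does not measure robustness. On bright arrays alone the difference was 0.66 with an adjusted p of 0.0516 (limma). The 14 islands of 10 replacement-variant genes had group medians between -0.55 and -0.14, with single islands from -1.23 (H1fx in aTC) to 1.31 (H3f3a in Min6), and 2 were called higher and 1 lower in differentiated ES cells than in adult tissue, where 14.4% of all islands were called higher and 8.73% lower; the other higher one is a second island, 2243 bases from the H1f0 start and named also for Gcat, and the lower one is H2afz (H2A.Z). H1fnt fell by 0.67 ± 0.20 (SE; limma, adjusted p = 0.0130) in differentiated ES cells against adult tissue, from 3.28 to 2.60, and without endoderm replicate 1 the difference was -0.45 with an adjusted p of 0.0937 (limma). Of 47 alternatives for H1fnt in the same comparison, 43 kept the call, a count with the same limit as for H1f0. The fall was not particular to H1fnt, since 9 of the 12 germline islands were also called lower there.

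Of the islands of genes that make and handle replication-type histones, 9 of 12 and 12 of 14 had an adult mean below 0, against 71.0% of all islands. The 12 islands of 11 factors for histone transcription and histone mRNA 3' ends had a median IMS of -0.42 in adult tissue, among them Slbp, the stem-loop binding protein, at -0.49 and Casp8ap2, a component of histone locus bodies, at -0.29, and in differentiated ES cells 0 rose and 1 fell (Ccne2, cyclin E2, by 0.28). The 14 islands of 11 histone chaperone genes had a median of -0.36, of which 0 were called higher and 2 lower in differentiated ES cells than in adult tissue (Npm1, difference -0.52, and Nap1l1, difference -0.30). Daxx, an H3.3 chaperone, had its promoter island at -0.44 and a second island 2050 to 2550 bases inside the gene at 2.38 in adult tissue. In this comparison 23.2% of all islands were called.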

How the data were processed

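mDIP was run by the authors on mouse DNA, with bound DNA in Cy5 and input in Cy3 on Agilent CpG island arrays. The deposited scanner files hold background-subtracted, linearly normalised log10 ratios per spot (Feature Extraction, 4 software versions), together with spot intensity columns in each channel and flags for signal well above background. A deposited table holds the authors' own probe Z scores, which by the methods were taken according to probe melting temperature; it was planned only as an alternative and left 0 histone islands to score. Arrays carried 97651 or 88737 probes, and 492 probes without coordinates were left out. From the log10 ratios, Z scores were computed within each array over all probes and averaged per island. The adjustment for melting temperature was not repeated. Island scores were tested with limma (version 3.58.1, in R 4.3.3), with 4 groups in 1 fit (29 arrays), the teratomas added for theirs (31 arrays), and an F test over 8 tissues (16 arrays). Adjusted p values are Benjamini-Hochberg over 13616 islands, with a threshold of 0.05. The 4-group fit was also run on simulated data with independent noise on each array. That noise held no slide, scan day or brightness effect, so the run does not show how the fit behaves with them. Groups came from the sample labels. The labels do not say that samples of 1 group came from separate animals or cultures throughout, so p values measure the spread between these samples. The number of arrays and the signal over background (a median of 3.07 to 7.34 for input) limit precision.

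The histone members and the gene lists were chosen with earlier results of these data known. Islands named were every Hist2, Hist3 and Hist4 island, the 3 highest and 3 lowest in adult tissue, the 3 with the smallest p in each direction of 6 comparisons, and the 3 with the largest excess in Min6 and aTC, 22 in all; further islands were named after their values were seen. The likeness rule of the plan needed a testis-type island and was not applied. Alternatives were another scaling, background, probe filter, island definition and test, blocks for slide, scan day and software, and leaving out each array of the groups fitted. Leaving out spots of dim input, normexp on median signals, the use of bright arrays only and leaving out adult arrays from the group comparisons were chosen after seeing the data.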

Additional observations from a re-analysis of the deposited data

Results flagged for a closer look

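Within the 5 embryos and the 5 differentiated ES cell samples, 54 sets of values were searched for a sample standing far from the other 4, and 10 were found. Chance gives about 1 in 20 such sets when they are independent. These sets share the same arrays, so the 10 cannot be set against that rate. The 8.5 dpc embryo accounts for 7. Its mean over the histone islands was -1.01, against -0.45 to -0.33 at the other stages. It stood at -1.74 for Hist1h1b (others -0.70 to -0.29), -1.46 for Hist1h2ah/Hist1h2bk (others -0.37 to -0.13), -1.84 for the 5-probe Hist1h2be island (others -0.68 to -0.52) and -1.63 for Hist1h2ac/Hist1h2bc (others -0.18 to 0.01). For the testis genes it stood at 2.72 for H1fnt (others 3.39 to 3.62) and 2.54 for Brdt (others 1.62 to 1.77). In this array 94.1% of histone probes had a readable input, against 20.6% to 37.5% in the other embryos, and it was on the slide of TT2, whose mean was -1.04. Stage, slide and brightness cannot be told apart.

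The 9.5 dpc embryo stood at -0.20 for Hist1h2be/Hist1h1e, against -0.74 to -0.65 at the other stages. Endoderm replicate 1 stood at -1.03 for Hist1h2bl/Hist1h2ai, against -0.35 to -0.10 in the other differentiated samples, and at 0.14 for Hist1h3a/Hist1h1a, against -0.49 to -0.37. Endoderm replicate 1 was the brightest array for histone spots (99.3% readable), and the part of brightness in its values was not tested.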

How the results depend on the processing

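The counts of 0 histone islands called held under most alternatives. With slide as a fixed block, differentiated ES cells against adult tissue called 1 island, and with scan day as a fixed block 3, all lower (Hist1h2ah/Hist1h2bk in both). With spots of dim input left out (14 islands), the same comparison called 2, both higher, differentiated against undifferentiated ES cells 1 and differentiated ES cells against embryos 2; fitting only the groups compared called 1 in the last, Hist4h4/H2afj at -0.59 (adjusted p = 0.0358, limma). The 5-probe Hist1h2be island was called higher in all 3 of the dim-input fits, on 2 differentiated arrays. The direction of the calls thus differed between settings, and the cause was not tested. For these settings the share of all islands called is not given, so the counts have no background. Leaving out each of the 31 arrays in turn (16 for the adult tissues) called 0 to 0 in each comparison. An array outside the groups compared cannot change their difference when it is left out. The teratoma comparisons could not be estimated with slide or scan day as a fixed block, since no teratoma shared either. The adult tissue F test with a replicate block called 0 histone islands (2 at an unadjusted p under 0.05), against 0 without it. The share of all islands at that level with the block is not given here. The replicate numbers were not taken as pairs: arrays of the same number deviated together only weakly (median correlation 0.07, lowest -0.50, against -0.21 for different numbers). In 5 tissues the number also marks sex, and in 6 (brain, kidney, liver, lung, muscle and spleen) replicate 1 marks the shared scan day. Without the block, the F test counts any scan-day difference in the spread within these tissues.

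Differences reversed in sign: Hist1h2ae/Hist1h2bg was 0.18 in undifferentiated ES cells against adult tissue with normexp on median signals. Between differentiated and undifferentiated ES cells with slide as a block, it was -0.11, the Hist1h2be island -0.36 and Hist1h2ac/Hist1h2bc -0.66, and with scan day as a block the latter pair were -0.14 and -0.39. The slide-block values use neither J1 nor TT2. Under normexp the mean histone score was -0.062 in embryos, -0.18 in undifferentiated ES cells, -0.054 in differentiated ES cells and 0.086, above 0, in teratomas; the cause was not tested. With dim input left out it was -0.75 in differentiated ES cells and -0.66 in teratomas. On bright arrays only (at least 50% of histone probes readable), the embryo mean was -1.01, from 1 array. Leaving out single arrays gave -0.54 to -0.37 in embryos, -1.01 to -0.63 in undifferentiated ES cells, -0.49 to -0.38 in differentiated ES cells and -0.35 to -0.20 in teratomas. H1fnt and Brdt exceeded the histone islands by 3.08 on average, by 4.23 with median and MAD scaling and by 4.28 on median-centred log2 ratios. The deposited table and a filter of 3 bright-input probes on every array left 0 histone islands and gave no value. The deposited J1 column correlated with its scanner ratios at r = 0.113, against 0.894 or more on the other arrays (across probes).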

Other observations

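The 36 histone probes in islands too small to score had a mean Z score below 0 on 29 of 34 arrays. It was -0.96 to -0.54 on the 6 adult arrays of the shared scan day and -0.29 to 0.26 on the 10 other adult arrays (mean -0.063 ± 0.17, SD).

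H3f3a, which encodes the replacement histone H3.3, has an island of 4 probes, 19119 to 19460 bases from its start, that scored -0.02 ± 0.25 in adult tissue (SD, n = 16) and 0.17 in ex vivo beta cells, but 1.31 in Min6 and 1.299 in aTC. Its larger island of 12 probes stayed at -0.47 and -0.80 in these lines. With 1 array for each line there is no replicate check.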
